A study of Mus musculus with 9 samples.

Results

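DNA end protection and end joining genes were examined in the RNAseq of spontaneous mammary gland tumors from BRCA-deficient mice. The genes were chosen by name and not by their values, although earlier results of these data were known. They are the 53BP1 axis (*Trp53bp1*, *Rif1*, *Mad2l2*, *Dynll1* and *Paxip1*), the core of non-homologous end joining (*Xrcc5*, *Xrcc6*, *Prkdc* and *Lig4*), and DNA polymerase theta (*Polq*). All 10 were found among the 35275 genes listed, and all 10 had enough reads to be tested. RNA came from 9 tumors, from 3 mice in each of 3 groups, and every mouse carried the genotype Brca1Co/Co;MMTV-Cre;p53+/-. Cre was driven by the MMTV promoter, so that *Brca1* is deleted mainly in mammary epithelium and not in the other cells of a tumor. The saline group received no drug. The i.v. TLZ group received free Talazoparib, an inhibitor of the PARP enzymes, and the NanoTLZ group received Talazoparib enclosed in liposomes. Both were given intravenously at 0.33 mg/kg for 5 doses, 3 times a week. The free drug carried DMSO and NanoTLZ carried its liposome, while the saline group had neither, so drug and vehicle cannot be told apart in a comparison with saline. The labels give no age of the mice, and nothing in them pairs tumors across groups.

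A broken chromosome end can be joined directly or cut back to a single strand, and the choice decides which repair follows. 53BP1, the product of *Trp53bp1*, binds chromatin beside the break and recruits RIF1 and, through it, REV7 (*Mad2l2*) with the shieldin complex, which protects the end from resection. The Ku70 and Ku80 proteins (*Xrcc6* and *Xrcc5*) form a ring on the end, dock the kinase DNA-PKcs (*Prkdc*), and DNA ligase IV (*Lig4*) seals the break. DNA polymerase theta joins ends after limited resection by pairing short stretches of shared sequence. Cells without BRCA1 lean on these routes. Loss of 53BP1, RIF1, REV7, DYNLL1 or PAXIP1 function is known to restore resection in such cells and to make them less sensitive to PARP inhibitors, whereas loss of polymerase theta is known to make them more sensitive.

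Promoter windows in RefSeq, on build GRCm38.p6, reach from 250 bases before to 50 bases after a start site and were found for 8 of the 10 genes, with 10 windows in all. *Rif1* and *Prkdc* had none. The windows of *Xrcc5*, *Xrcc6* and *Polq* are shown because *Xrcc5* and *Polq* were furthest below saline and *Xrcc6* encodes the partner of Ku80. Capitals mark matches, on either strand, to the E2F sites TTTCCCGC and TTTGGCGC, to the cell cycle homology region TTTGAA, and to the CCAAT box. The windows lie at chr1:72307171-72307470 on the plus strand, chr15:82016119-82016418 on the plus strand, and chr16:37011536-37011835 on the plus strand, in that order.
Xrcc5: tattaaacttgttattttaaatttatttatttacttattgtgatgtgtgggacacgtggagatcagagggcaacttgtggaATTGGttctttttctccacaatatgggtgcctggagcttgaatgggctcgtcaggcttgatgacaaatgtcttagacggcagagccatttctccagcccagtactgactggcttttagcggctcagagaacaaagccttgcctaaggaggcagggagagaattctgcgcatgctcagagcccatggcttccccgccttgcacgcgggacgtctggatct
Xrcc6: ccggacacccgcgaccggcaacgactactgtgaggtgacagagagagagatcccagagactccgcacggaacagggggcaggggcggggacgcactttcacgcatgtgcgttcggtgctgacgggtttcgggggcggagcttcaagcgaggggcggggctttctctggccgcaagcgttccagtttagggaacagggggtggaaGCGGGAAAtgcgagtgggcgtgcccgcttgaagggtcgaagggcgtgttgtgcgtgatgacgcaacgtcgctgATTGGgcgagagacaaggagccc
Polq: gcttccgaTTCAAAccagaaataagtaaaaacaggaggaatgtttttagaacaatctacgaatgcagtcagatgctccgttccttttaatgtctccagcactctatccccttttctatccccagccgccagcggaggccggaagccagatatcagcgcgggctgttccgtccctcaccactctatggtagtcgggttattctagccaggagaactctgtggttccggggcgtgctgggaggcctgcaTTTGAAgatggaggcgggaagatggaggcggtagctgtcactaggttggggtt

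The window of *Xrcc6* held 1 E2F match, at position -46 relative to the start site, and was the only one of the 10 windows to hold any. E2F matches occurred in 1.56% of the 32851 RefSeq promoter windows of the same length. The window of *Polq* held 2 matches to TTTGAA, at positions -242 and -3. That motif occurred in 17.9% of all windows. The window of *Xrcc5* held a CCAAT match, a motif found in 37.4% of all windows, and neither of the other motifs. A GC box, GGGCGG on either strand, occurred in 35.7% of all windows, 3 times in that of *Xrcc6* and not in those of *Xrcc5* and *Polq*. A match is a description of the letters and not a measured binding site.

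Counts in the table summed to between 17538380 and 21194980 per tumor with a median of 19747343. Levels are given as CPM, the read count of a gene scaled to the library total, with TMM normalization factors. Together the 10 epithelial markers were high in every tumor. They summed to 5170 to 9004 CPM in saline, 5940 to 7155 CPM in i.v. TLZ and 4083 to 5781 CPM in NanoTLZ tumors. Not every marker was high. *Krt5* was at 1849 CPM in saline 3, 72.9 CPM in i.v. TLZ 3 and 2.30 to 11.7 CPM in the other tumors. The summed level of 10 skeletal muscle markers was 36.7 to 751 CPM in saline tumors, against 5.30 to 35.0 CPM in i.v. TLZ and 11.7 to 20.3 CPM in NanoTLZ tumors, and *Pvalb* had no count in 5 of the 6 treated tumors. The 10 leukocyte markers summed to 471 to 2174 CPM in saline, 1380 to 2702 CPM in i.v. TLZ and 3035 to 4187 CPM in NanoTLZ tumors. By group means most of that sum was *Lyz2*, a myeloid gene (means of 724, 1699 and 3054 CPM). In saline 1 *Lyz2* was 192 of 471 CPM. *Ptprc*, the common leukocyte antigen, had means of 54.8, 45.1 and 73.4 CPM. The tumor saline 1 stood apart in the balance of long and short transcripts. Genes with transcripts above the upper quartile of length (4620 bases) lay 0.61 above those under the lower quartile (1983 bases) in saline 1 (median log2 deviation from each gene's mean of 9 tumors), against -0.23 to 0.07 in the other 8 tumors. *Trp53bp1*, *Rif1*, *Prkdc* and *Polq* have transcripts longer than 95.9% of tested genes or more, and this comparison of lengths was added after the data had been seen. The part of cell makeup and of transcript length in the results below was not tested, and values without saline 1 are given for these 4 genes and for *Xrcc5*.

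In i.v. TLZ tumors 8 of the 10 genes were below saline in fitted log2 fold change, beside 52.4% of all genes tested. In NanoTLZ tumors 9 of the 10 were, beside 56.1% of all genes tested. *Xrcc5* and *Polq* were furthest below in both. As a group the 10 had a median on the log2 scale of -0.47 with i.v. TLZ and -0.42 with NanoTLZ, beside -0.03 and -0.09 for all 15821 genes tested. None of the 10 passed the test. With edgeR's quasi-likelihood test and an adjusted p under 0.05, 0 of the 10 were called in either comparison, while over all genes 0% were called after i.v. TLZ and 0.00632%, a single gene, after NanoTLZ. DESeq2 on all 9 tumors likewise called 0 of the 10 after either treatment, where it called 1.12% of all genes it tested after i.v. TLZ and 0.712% after NanoTLZ. At an unadjusted p under 0.05, 2 of the 10 were lower after i.v. TLZ (*Xrcc5* and *Polq*) and 1 after NanoTLZ (*Xrcc5*), where the background was 5.47% of genes lower and 4.91% higher after i.v. TLZ, and 5.49% lower and 3.51% higher after NanoTLZ. Taking the mean of both treatments against saline, 0 of the 10 were called by edgeR (background 0.019%, 3 genes) or by DESeq2 (background 1.53%) and 2 were lower at an unadjusted p under 0.05 (background 8.29% lower and 4.8% higher). Tumors of a group varied by about 49.83% around the fitted level of a typical gene. In RNA from whole tumors, fewer cells of a type and less RNA per cell cannot be told apart.

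**Figure D1:**
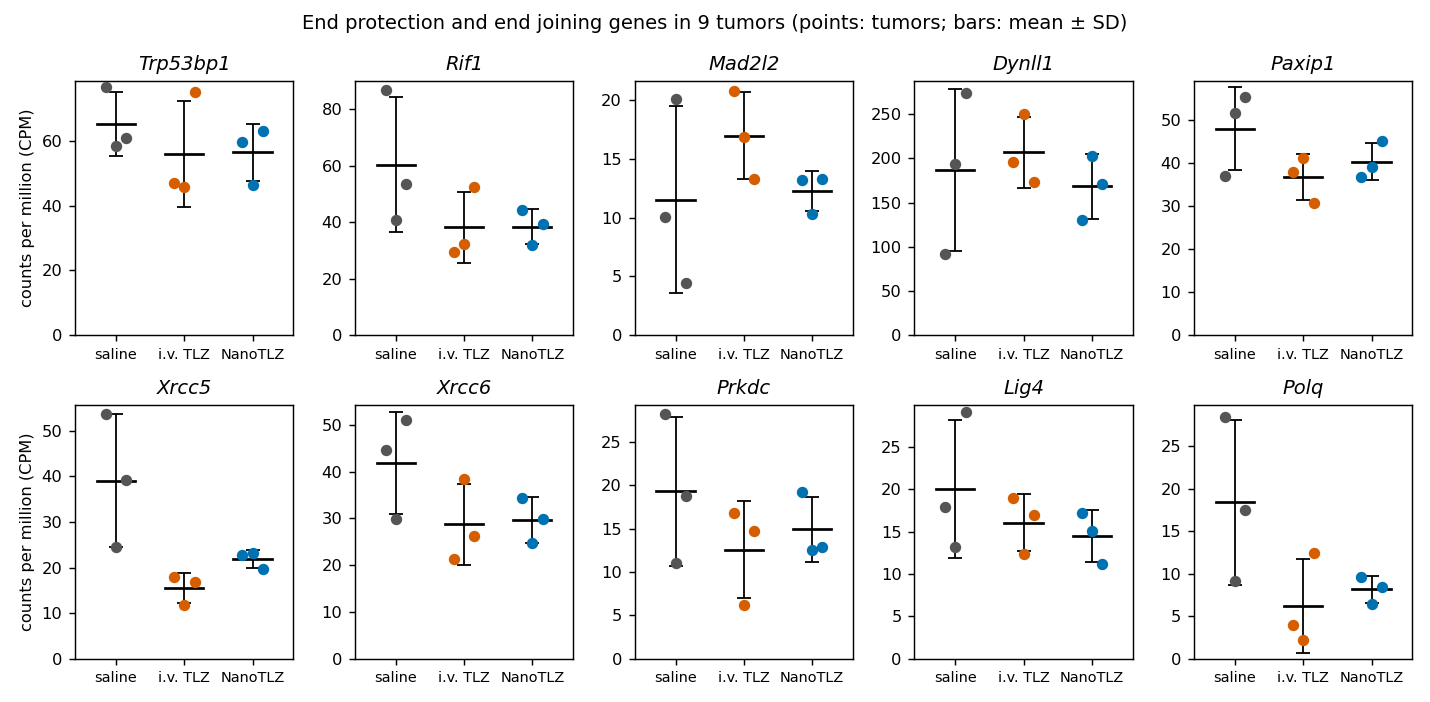
Level of each of the 10 genes in CPM (vertical axes, from 0) in the 3 saline, 3 i.v. TLZ and 3 NanoTLZ tumors. Points are tumors and bars the mean ± SD, and only for *Xrcc5* do all 6 treated tumors lie below all 3 saline tumors.

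*Xrcc5* was the only one of the 10 genes for which every treated tumor lay below every saline tumor. Across all tested genes 2.66% showed that pattern and 2.81% the opposite one, which none of the 10 showed. The other 9 genes had overlapping groups. The plot of fold changes shows that the intervals of *Xrcc5* lie below 0 for both treatments, that of *Polq* for i.v. TLZ, and that all other intervals include 0. Those intervals are not adjusted for the number of genes tested.

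**Figure D2:**
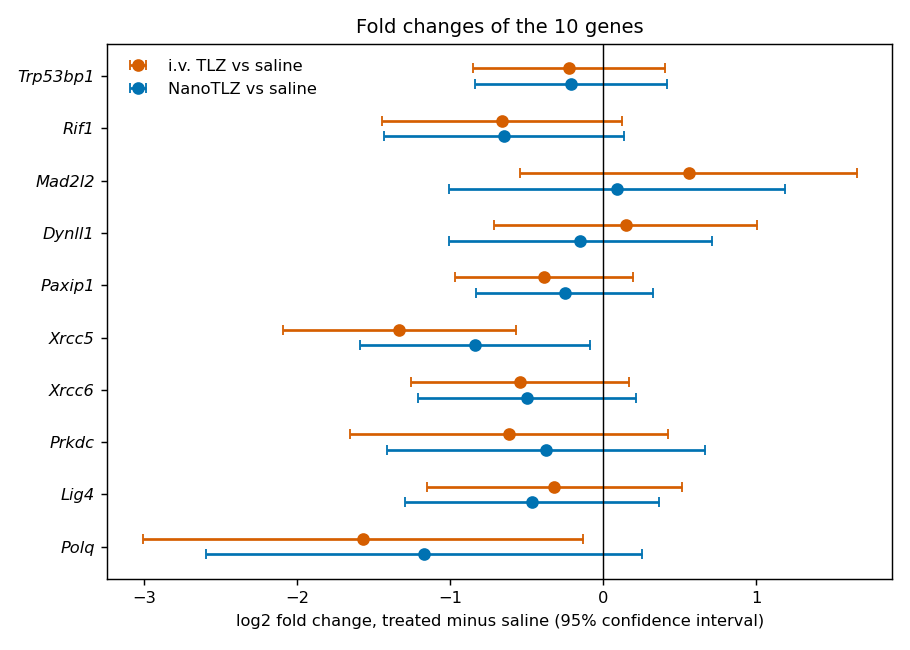
Log2 fold change (horizontal axis) of each gene after i.v. TLZ and after NanoTLZ relative to saline, from edgeR, with 95% confidence intervals. *Xrcc5* stands at -1.33 and -0.84 and *Polq* at -1.57 and -1.17, with the interval of *Polq* after NanoTLZ crossing 0.

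Every tumor had reads of all 10 genes. The smallest count was 40 reads, for *Polq* in i.v. TLZ 2. The lowest tumor held 23.8% of the median of 9 tumors for *Polq*, 33.6% for *Mad2l2*, 42.5% for *Prkdc* and 47.3% for *Dynll1*, and 51.6% or more for the other 6 genes. Gene totals do not show mutations, splice changes or protein. In whole tumors they also do not show whether the cancer cells had lost a transcript that other cells keep. Per kilobase of exon, *Dynll1* was the most abundant, with a mean of 48.1 CPM per kb over the 9 tumors. *Xrcc5* followed with 9.99 and *Xrcc6* with 7.46 CPM per kb. *Mad2l2*, *Rif1*, *Trp53bp1*, *Paxip1* and *Lig4* lay between 3.25 and 5.18 CPM per kb. *Prkdc* with 1.18 and *Polq* with 1.13 CPM per kb were the least abundant, both in the lower part of the range of tested genes. Lengths count every annotated exon once. With the length of the longest transcript instead, *Trp53bp1* came to 6.15, *Mad2l2* to 8.85, *Paxip1* to 7.11, *Xrcc6* to 10.1 and *Dynll1* to 83.5 CPM per kb, so that the order in the middle of the range depends on the length used. *Polq* was also the most variable, with a 13.0-fold range over the tumors and an SD of log2 CPM of 1.08, which is larger than in 85.7% of tested genes. *Paxip1* and *Trp53bp1* were among the steadiest genes, with SDs larger than in 6.71% and 8.83% of tested genes.

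At the head of the 53BP1 axis the 3 groups overlapped. *Trp53bp1* (chr2:121193281-121271407, minus strand) was at 76.6, 58.3 and 60.9 CPM in saline tumors 1, 2 and 3. It was at 47.1, 45.7 and 74.9 CPM in the i.v. TLZ tumors. NanoTLZ tumors had 59.7, 46.4 and 63.1 CPM. i.v. TLZ 3 stood close to the highest saline tumor. The log2 fold change was -0.22 (SE 0.28, adjusted p = 0.806) after i.v. TLZ and -0.21 (SE 0.28, adjusted p = 0.827) after NanoTLZ. These intervals, -0.85 to 0.40 and -0.84 to 0.42, leave room for changes in either direction. Without saline 1 the values were -0.08 and -0.05. Exons of *Trp53bp1* overlap those of *Tubgcp4*, a gamma-tubulin complex gene on the opposite strand, over 2130 bases, and 13.7% of its 50-base stretches occur in *Tubgcp4* as well. The strand setting of the counting is not given in the sources used here, so reads in that overlap cannot be assigned with certainty.

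*Rif1*, the effector that 53BP1 brings to the break, was lower in the treated means. It was at 87.0, 40.7 and 53.4 CPM in saline, 29.6, 32.3 and 52.6 CPM in i.v. TLZ and 44.2, 32.0 and 39.3 CPM in NanoTLZ tumors. All 6 treated tumors were below saline 1 and saline 3, and 4 of the 6 were below saline 2 as well. On the log2 scale *Rif1* stood at -0.66 (SE 0.35, adjusted p = 0.532) after i.v. TLZ and -0.65 (SE 0.35, adjusted p = 0.588) after NanoTLZ. Without saline 1 it was -0.29 and -0.26.

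*Mad2l2* encodes REV7, which links RIF1 to the shieldin proteins and also serves as a subunit of DNA polymerase zeta. Its levels were low and varied most among the saline tumors, at 10.01, 20.1 and 4.45 CPM. The i.v. TLZ tumors were at 20.7, 16.8 and 13.3 CPM and the NanoTLZ tumors at 13.2, 10.3 and 13.2 CPM. The highest saline tumor, saline 2, was within 1 CPM of the highest i.v. TLZ tumor, and the lowest tumor of all was saline 3. Its fitted change on the log2 scale was 0.56 (SE 0.49, adjusted p = 0.704) after i.v. TLZ and 0.09 (SE 0.49, adjusted p = 0.968) after NanoTLZ. Leaving out saline 3 turned the NanoTLZ value to -0.27, while the i.v. TLZ value was 0.18 without saline 3 and 1.23 without saline 2.

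*Dynll1* encodes a dynein light chain that binds 53BP1 and restrains the resection enzyme MRE11. It ranged from 91.8 to 274 CPM in saline, from 173 to 251 CPM in i.v. TLZ and from 131 to 203 CPM in NanoTLZ tumors. Both the lowest and the highest of the 9 tumors were saline tumors (1 and 3). Its log2 fold change was 0.15 (SE 0.39) and -0.15 (SE 0.39), and its sign depended on which saline tumor was kept. *Paxip1* encodes PTIP, an effector of 53BP1 that acts alongside RIF1. It ranged from 37.0 to 55.4 CPM in saline, from 30.7 to 41.2 CPM in i.v. TLZ and from 36.7 to 45.1 CPM in NanoTLZ tumors. Its log2 fold change was -0.39 (SE 0.26) after i.v. TLZ and -0.25 (SE 0.26) after NanoTLZ, and the groups overlapped because saline 1 lay among the treated tumors.

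*Xrcc5*, the gene of Ku80 (chr1:72307421-72394952, plus strand), had the smallest unadjusted p of the 10 genes in both comparisons with saline. It was at 53.6, 24.5 and 39.2 CPM in saline tumors. The i.v. TLZ tumors were at 17.8, 11.8 and 16.9 CPM, and the NanoTLZ tumors at 22.9, 23.1 and 19.7 CPM. The groups did not overlap in any direction, with i.v. TLZ lowest, NanoTLZ next and saline highest, although saline 2 and the highest NanoTLZ tumor were close. The group means were 39.1 ± 14.5, 15.5 ± 3.25 and 21.9 ± 1.90 CPM (SD, n = 3 tumors each). The log2 fold change was -1.33 (SE 0.34, 95% confidence interval -2.09 to -0.57) after i.v. TLZ, with an unadjusted edgeR p of 0.00291 and an adjusted p of 0.417. It was -0.84 (SE 0.34, -1.59 to -0.08) after NanoTLZ, with an unadjusted edgeR p of 0.0325 and an adjusted p of 0.552. Over the alternatives the adjusted p after i.v. TLZ ranged from 0.0510, with DESeq2 on all 9 tumors, to 0.779. Leaving out saline 1 gave -1.02 and -0.51, so that the NanoTLZ value depends on that tumor. No 50-base stretch of *Xrcc5* occurs in another gene.

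*Xrcc6*, the gene of Ku70, is the partner of Ku80. It was at 44.6, 29.9 and 51.1 CPM in saline, 21.4, 38.4 and 26.3 CPM in i.v. TLZ and 34.4, 24.7 and 30.0 CPM in NanoTLZ tumors. The treated means were lower, but the lowest saline tumor lay inside the treated range. Relative to saline its log2 fold change was -0.54 (SE 0.32, adjusted p = 0.562) after i.v. TLZ and -0.50 (SE 0.32, adjusted p = 0.628) after NanoTLZ. The ratio of *Xrcc5* to *Xrcc6*, both in CPM per kb, was 2.11, 1.44 and 1.34 in saline, 1.46, 0.54 and 1.13 in i.v. TLZ and 1.17, 1.64 and 1.15 in NanoTLZ tumors. Ku80 and Ku70 transcripts therefore did not keep 1 ratio from tumor to tumor, and i.v. TLZ 2 was the only tumor with less *Xrcc5* than *Xrcc6* on this scale. Which tumors have less *Xrcc5* depends on the length used. With the longest transcript the means over the 9 tumors were 9.99 CPM per kb for *Xrcc5* and 10.1 for *Xrcc6*. *Xrcc6* shares 344 exonic bases with *Desi1*, a gene on the opposite strand, and 6.29% of its 50-base stretches.

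*Prkdc* encodes the catalytic subunit of DNA-PK. It was at 28.2, 11.01 and 18.7 CPM in saline, 16.8, 6.23 and 14.7 CPM in i.v. TLZ and 19.3, 12.6 and 12.9 CPM in NanoTLZ tumors. Saline 1 was the highest tumor and i.v. TLZ 2 the lowest, while saline 2 was lower than every treated tumor but that one. Fitted log2 fold changes were -0.62 (SE 0.47, adjusted p = 0.647) after i.v. TLZ and -0.37 (SE 0.47, adjusted p = 0.813) after NanoTLZ, and without saline 1 they were -0.23 and 0.04. *Lig4*, the ligase of this route, ranged from 13.2 to 29.1 CPM in saline, from 12.4 to 19.0 CPM in i.v. TLZ and from 11.2 to 17.2 CPM in NanoTLZ tumors. Its highest level was in saline 3. Its log2 fold change was -0.32 (SE 0.37) and -0.46 (SE 0.37), and without saline 3 it was 0.06 and -0.07.

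*Polq* (chr16:37011786-37095417, plus strand) had the largest fitted differences of the 10 genes and also the largest spread. It was at 28.5, 9.20 and 17.5 CPM in saline tumors. The i.v. TLZ tumors were at 3.93, 2.19 and 12.5 CPM, and the NanoTLZ tumors at 9.58, 6.49 and 8.43 CPM. i.v. TLZ 3 stood above saline 2, as did NanoTLZ 1, while the other 4 treated tumors were below all saline tumors. The group means were 18.4 ± 9.68, 6.20 ± 5.52 and 8.17 ± 1.56 CPM (SD, n = 3 tumors each). The log2 fold change was -1.57 (SE 0.65, 95% confidence interval -3.01 to -0.13) after i.v. TLZ, with an unadjusted edgeR p of 0.0355 and an adjusted p of 0.455. After NanoTLZ it was -1.17 (SE 0.64, -2.59 to 0.25), with an unadjusted edgeR p of 0.0967 and an adjusted p of 0.589. The adjusted p ranged from 0.244 to 0.779 over the alternatives for i.v. TLZ and from 0.322 to 0.901 for NanoTLZ. The size rested on single tumors. After i.v. TLZ it was -2.57 without i.v. TLZ 3 and -1.09 without saline 1, and after NanoTLZ it was -0.68 without saline 1.

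Between the formulations no gene was called. NanoTLZ was set against i.v. TLZ, which carried the same dose on the same schedule, and 0 of the 10 genes were called by edgeR or DESeq2, with 0% of all genes called by edgeR and 0.0119% by DESeq2 on all 9 tumors. At an unadjusted p under 0.05 edgeR again gave 0 of the 10, beside 1.68% of all genes in either direction. Every NanoTLZ tumor had more *Xrcc5* than any i.v. TLZ tumor, by 0.50 on the log2 scale (SE 0.34, 95% confidence interval -0.25 to 1.25), a separation that 3.2% of all tested genes showed. *Mad2l2* was lower in all 3 NanoTLZ tumors, as were 4.41% of tested genes, but its nearest tumors were almost level (13.2 and 13.3 CPM), and the log2 difference was -0.47 (SE 0.49, -1.57 to 0.63). *Polq* differed by 0.40 (SE 0.64, -1.02 to 1.81), and the groups overlapped. For *Trp53bp1*, *Rif1* and *Xrcc6* the differences were 0.01, 0.01 and 0.05, with intervals of -0.61 to 0.64, -0.77 to 0.79 and -0.67 to 0.76. The intervals do not show that free and liposomal Talazoparib act alike on these genes.

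Other genes of the same routes were described from lists, with no member of the list called in any comparison. The 11 genes that recruit or control 53BP1 had medians of -0.26 and -0.14 on the log2 scale, after i.v. TLZ and NanoTLZ in that order, with 0 of 11 at an unadjusted p under 0.05 in each. The 17 genes of shieldin, the CST complex and the control of REV7 and PTIP had medians of -0.16 and -0.11, with 1 of 17 lower at that level each time. That gene was *Pola1*, the catalytic subunit of polymerase alpha, after i.v. TLZ (-1.23, SE 0.50) and *Ppp1cb*, a phosphatase subunit, after NanoTLZ (-0.82, SE 0.28). The other 12 genes of non-homologous end joining, among them *Xrcc4* and *Nhej1*, had medians of -0.13 and -0.07 with 0 of 12 at that level. The medians of all genes tested were -0.03 and -0.09. At that level 5.47% of all genes were lower and 4.91% higher after i.v. TLZ, and 5.49% and 3.51% after NanoTLZ.

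The lists around polymerase theta and resection lay lower. Of 14 other genes of the polymerase theta route, 6 were lower at an unadjusted p under 0.05 after i.v. TLZ and 5 after NanoTLZ. Their medians were -0.64 and -0.58. Over all genes tested, 5.47% were lower at that level after i.v. TLZ and 5.49% after NanoTLZ. *Lig3*, a ligase that seals breaks in this route, was at -1.46 (SE 0.39, adjusted p = 0.417) and -0.95 (SE 0.38, adjusted p = 0.552). *Topbp1*, a checkpoint scaffold, was at -1.13 and -0.89, and *Rpa1*, a subunit of the single-strand binding protein RPA, at -0.89 and -1.06. The fold change of *Rpa3*, another subunit of RPA, rested on saline 1, which had 993 CPM where the other 8 tumors had 8.22 to 46.4 CPM. Of 9 genes of end resection, 7 were lower at that level after i.v. TLZ and 4 after NanoTLZ, with medians of -1.13 and -1.09. Among the 9 were the nucleases *Exo1* (-1.33 and -1.18) and *Dna2* (-1.57 and -1.19). The helicases *Blm* (-1.13 and -1.20) and *Brip1* (-1.98 and -1.09) were also among them, *Brip1* at that level only after i.v. TLZ. *Mre11a* was likewise at 228 CPM in saline 1 and at 19.0 to 62.2 CPM in the other tumors. Many genes of replication and resection are known to be expressed more in dividing cells. Of 20 proliferation markers, 20 were lower after each treatment, 16 and 15 of them at an unadjusted p under 0.05, with medians of -1.16 and -1.09, and their part in the lists above was not tested.

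**Figure D3:**
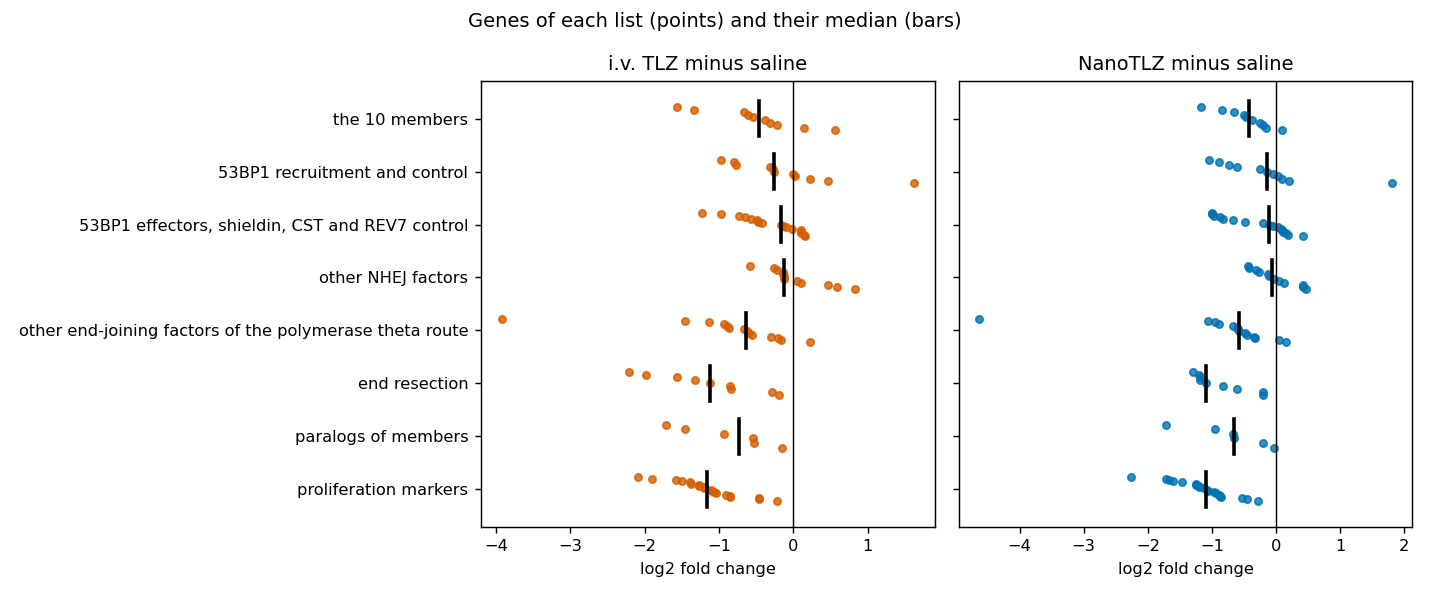
Log2 fold change (horizontal axes) of each tested gene after i.v. TLZ (left) and NanoTLZ (right) relative to saline, by list, with bars at the median. The lists of end resection (-1.13 and -1.09) and proliferation (-1.16 and -1.09) lie lower than the 10 members (-0.47 and -0.42) and than the other factors of non-homologous end joining (NHEJ, -0.13 and -0.07).

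Relatives of the 10 genes were compared to see whether a related gene shared the pattern. *Mad2l1*, a spindle checkpoint gene related to *Mad2l2*, was at -1.71 (SE 0.54) after both treatments, where *Mad2l2* was at 0.56 and 0.09. All 6 treated tumors had less *Mad2l1* than any saline tumor, a pattern that 2.66% of tested genes showed. The nearest tumors were close (30.4 CPM in i.v. TLZ 2 and 31.5 CPM in saline 1). Saline 3 was by far the highest, at 133 CPM beside 40.5 CPM in saline 2. *Lig1* was at -0.93 and -0.67 beside -0.32 and -0.46 for *Lig4*. *Dynll2* was at -0.55 and -0.20 beside 0.15 and -0.15 for *Dynll1*. *Helq*, related to the helicase part of *Polq*, was at -0.53 and -0.65. *Polh*, a polymerase gene that is not a close relative of *Polq*, was at -0.15 and -0.03. None of these was called.

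*Brca1*, the gene deleted by Cre, was at 32.6, 29.6 and 42.7 CPM in saline, 11.8, 9.46 and 31.5 CPM in i.v. TLZ and 18.4, 18.2 and 19.8 CPM in NanoTLZ tumors. Transcript remained in every tumor. A count over the whole gene does not check the deletion, because Cre removes only part of the conditional allele and other cells of the tumor keep it. The log2 fold change of *Brca1* was -0.99 (SE 0.44, adjusted p = 0.475) and -0.90 (SE 0.44, adjusted p = 0.568). *Parp1*, which encodes the main target of Talazoparib, had its 6 treated tumors below the 3 saline tumors, with log2 fold changes of -0.87 (SE 0.31, adjusted p = 0.443) and -0.45 (SE 0.31, adjusted p = 0.653). *Trp53*, the gene carried in a single working copy, was at -0.01 and 0.70, the latter with NanoTLZ 1 at 108 CPM and the other 8 tumors at 23.4 to 45.6 CPM.

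Several of the 10 genes varied together from tumor to tumor. Over the 9 tumors, which share libraries and treatment groups, log2 CPM of *Rif1* and *Polq* had a Pearson r of 0.90 and a Spearman rho of 0.95, and *Trp53bp1* and *Rif1* had 0.88 and 0.80. *Trp53bp1* and *Polq* had 0.86 and 0.85. After removal of the group means these were 0.88, 0.88 and 0.90, and without saline 1 they were 0.87, 0.89 and 0.79. *Xrcc5* followed *Polq* (r 0.87, rho 0.67) and *Prkdc* (r 0.80, rho 0.48) more closely than its partner *Xrcc6* (r 0.56, rho 0.42, and 0.10 after removal of the group means). *Mad2l2* ran opposite to *Lig4* (r -0.69, rho -0.35) and to *Xrcc6* (r -0.66, rho -0.62). These are descriptions over 9 points and no test was made.

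*Polq* and *Rif1* also followed the mean log2 CPM of the 20 proliferation markers, with r 0.82 and rho 0.95 for *Polq* and r 0.79 and rho 0.95 for *Rif1*. *Xrcc6* had r 0.77 and rho 0.60, *Xrcc5* r 0.76 and rho 0.65, *Trp53bp1* r 0.65 and rho 0.75, and *Mad2l2* r -0.81 and rho -0.63. *Dynll1* (r -0.07) and *Paxip1* (r 0.37) followed it least. The proliferation markers were highest in saline 3 and saline 1 and lowest in i.v. TLZ 1. In i.v. TLZ 3 the mean of the markers, *Polq* and *Rif1* were above their levels in saline 2, although single markers such as *Top2a* (110 against 241 CPM) were below.

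**Figure D4:**
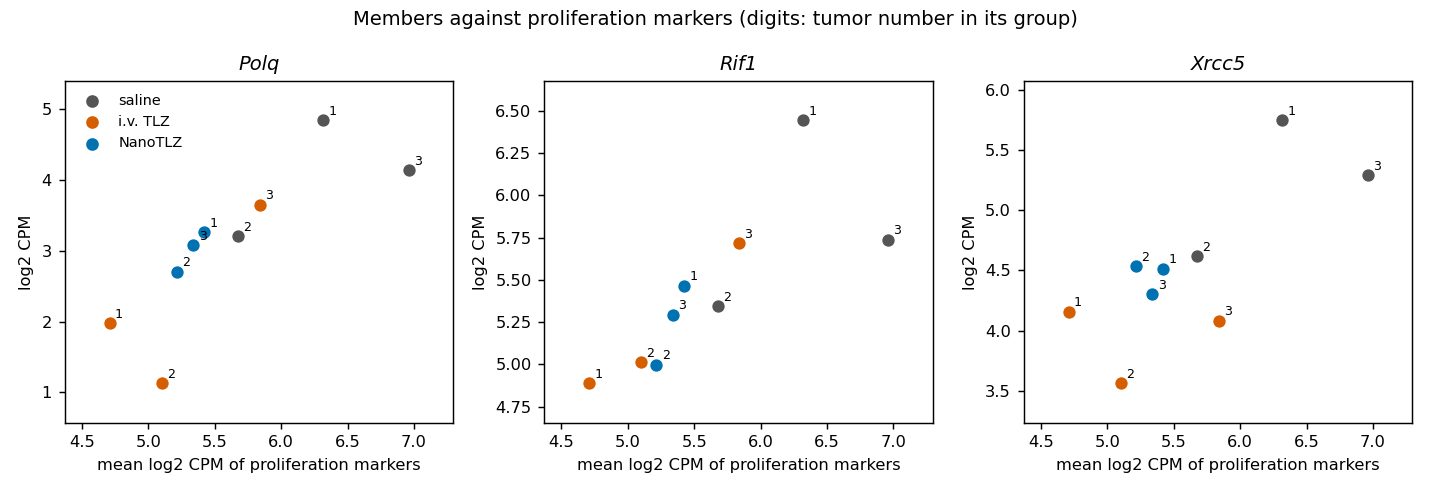
Log2 CPM of *Polq*, *Rif1* and *Xrcc5* (vertical axes) against the mean log2 CPM of 20 proliferation markers (horizontal axes), with 1 point per tumor and its number in the group beside it. *Polq* and *Rif1* rank the tumors almost as the markers do (rho 0.95 each), while *Xrcc5* places i.v. TLZ 3 with the other i.v. TLZ tumors (rho 0.65).

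The genes whose log2 CPM over the 9 tumors was most like that of *Polq* were *Plekha2* (r 0.98, rho 0.90), *Fyttd1* (r 0.98, rho 0.92), *Mcm4* (r 0.98, rho 0.95), *Gart* (r 0.97, rho 0.97) and *Chaf1b* (r 0.97, rho 0.98). The last 4 lie, as *Polq* does, on chromosome 16. Of the 100 genes most like *Polq*, 39 were on chromosome 16, which holds 3.13% of the genes tested. *Prkdc* is on the same chromosome, and 31 of the 100 genes most like it were there. *Mad2l2* and *Dynll1* showed the same for their own chromosomes, with 39 of 100 on chromosome 4 (6.46% of tested genes) and 37 of 100 on chromosome 5 (6.14%). For the other 6 genes the number was 10 to 16. The genes most like *Trp53bp1* were *Urb1* (r 0.97, rho 0.92), *Gm16892* (r 0.96, rho 0.95), *Gm13199* (r 0.95, rho 0.98), *Gm26516* (r 0.94, rho 0.85) and *Cxadr* (r 0.94, rho 0.95), of which *Urb1*, *Gm16892* and *Cxadr* are on chromosome 16 and only *Gm13199* is on its own chromosome 2.

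Expressed genes within 10 Mb of each of the 10 genes were therefore compared with it, a step added after the data had been seen. Values are log2 deviations from a gene's own mean of 9 tumors. In i.v. TLZ 2 the 110 neighbours of *Polq* had a median of -0.83 and *Polq* stood at -1.93, while in saline 1 the neighbours were at 0.51 and *Polq* at 1.71. The 129 neighbours of *Prkdc* were at -0.74 in i.v. TLZ 2, where *Prkdc* was at -1.20. Over the whole of chromosome 16 the median was -0.73 in i.v. TLZ 2 and 0.34 in saline 1, a range of 1.07 that only chromosome 13 exceeded, with 1.20. The neighbours of *Dynll1* were at 0.67 in saline 3 and -0.38 in saline 1, which are its highest and lowest tumors, and those of *Mad2l2* were at -0.53 in saline 3, its lowest tumor. Over the 9 tumors the neighbour median and the gene had r 0.90 and rho 0.90 for *Polq*, and 0.89 and 0.80 for *Lig4*. The values were 0.83 and 0.87 for *Mad2l2*, 0.77 and 0.43 for *Prkdc*, and 0.76 and 0.77 for *Dynll1*. *Xrcc5* had 0.70 and 0.57, *Xrcc6* 0.61 and 0.68, and *Rif1* 0.52 and 0.45. *Paxip1* had 0.41 and 0.40 and *Trp53bp1* 0.25 and 0.22. With the median of its whole chromosome *Lig4* had r -0.28.

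**Figure D5:**
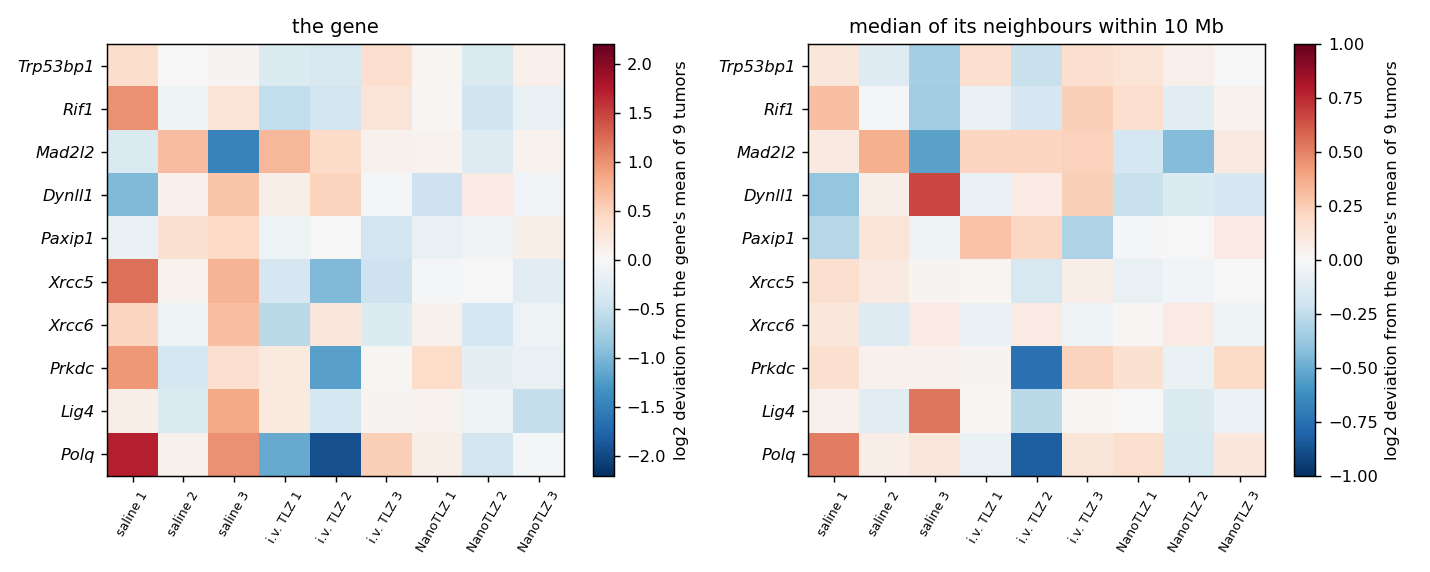
Log2 deviation from the mean of 9 tumors (color) for each of the 10 genes (left) and for the median of its neighbours within 10 Mb (right), by tumor, with a wider color scale on the left. *Polq* and *Prkdc* and their neighbours are lowest in i.v. TLZ 2, and *Mad2l2* and its neighbours are lowest in saline 3.

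Median fold changes of the neighbours were set beside those of the genes. For *Polq* the neighbours had a median of -0.43 on the log2 scale with i.v. TLZ and -0.26 with NanoTLZ, beside -1.57 and -1.17 for the gene. For *Xrcc5* it was -0.23 and -0.25, beside -1.33 and -0.84. For *Mad2l2* it was 0.22 and -0.20, beside 0.56 and 0.09. *Trp53bp1* had neighbours at 0.12 and 0.13, beside -0.22 and -0.21, and *Paxip1* at 0.14 and 0.07, beside -0.39 and -0.25. Those of *Dynll1* were at -0.14 and -0.38, beside 0.15 and -0.15, and those of *Prkdc* at -0.24 and 0.01, beside -0.62 and -0.37. *Rif1* had -0.07 and -0.03, beside -0.66 and -0.65. *Xrcc6* had -0.07 and -0.08, beside -0.54 and -0.50, and *Lig4* -0.27 and -0.19, beside -0.32 and -0.46. Copy number was not measured in these samples, and its part in these patterns was not tested.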

How the data were processed

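RNA of whole flash-frozen tumors was sequenced, and the table deposited by the authors holds raw counts of reads for each gene in the 9 tumors, not normalized. Per the labels' processing notes TopHat2, DESeq2 and build mm10 were used. The counting program, annotation and strand setting are not given in the sources used here. Identifiers were matched to GENCODE M21 (34490 of 35275), and 785 identifiers without a match kept their place in the fit. No 2 columns were identical, and totals were 17538380 to 21194980 counts.

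Genes were kept by filterByExpr (minimum count 10, minimum total 15), which left 15821. TMM scaling was used. The quasi-likelihood model of edgeR 4.0.16 (R 4.3.3) had a mean for each group and a spread shared by the 9 tumors, and its F-test was followed by Benjamini-Hochberg adjustment over all tested genes, with a call at an adjusted p under 0.05. Scripts were tested on simulated data. Log2 CPM used a prior count of 2. Neighbours had a mean log2 CPM above 1. DESeq2 1.42.0, other normalizations and filters, and each tumor left out in turn were alternatives. Named genes were the 10 members, up to 4 genes a list at an unadjusted p under 0.05, and relatives of the members. Also named were *Polh*, *Brca1*, *Trp53* and *Parp1*, and the 5 genes most like *Polq* and *Trp53bp1*. *Mre11a* was named after its values had been seen. The 10 genes, lists and tests were chosen with earlier results of these data known. Each p measures the spread between the tumors of a group, 1 per mouse.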

Additional observations from a re-analysis of the deposited data

How the results depend on the processing

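None of the 10 genes was called under any of 17 alternatives in the 3 comparisons of 2 groups, or under any of 15 for the mean of both treatments, 660 values in all, the smallest adjusted p being 0.0510 (*Xrcc5* after i.v. TLZ, DESeq2 on all 9 tumors). The sign changed in 31 of these values. *Dynll1*, at -0.0019 for the mean of both treatments, turned to 0.013 with RLE, 0.053 with upper quartile normalization, 0.0064 without a filter, 0.017 with at least 10 counts in every tumor and 0.0097 with DESeq2. With 1 tumor left out in turn, after i.v. TLZ *Dynll1* ranged from -0.17 to 0.54 and *Lig4* from -0.55 to 0.061. After NanoTLZ *Mad2l2* ranged from -0.27 to 0.76, *Dynll1* from -0.44 to 0.26 and *Prkdc* from -0.65 to 0.037. For NanoTLZ minus i.v. TLZ *Trp53bp1* ranged from -0.11 to 0.30, *Rif1* from -0.14 to 0.33, *Xrcc6* from -0.12 to 0.32, *Prkdc* from -0.077 to 0.51, *Lig4* from -0.30 to 0.029 and *Polq* from -0.0046 to 1.44. For the mean of both treatments *Mad2l2* ranged from -0.047 to 0.99 and *Dynll1* from -0.31 to 0.40.

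Counts of called genes over the whole table depended on the tool. After i.v. TLZ (0 by edgeR) they were 5 without a filter, 194 with DESeq2 on all 9 tumors and 92 with DESeq2 on the 2 groups. After NanoTLZ (1) they were 6 without a filter, 110 and 171 with DESeq2, 0 with edgeR on the 2 groups, and 0 to 3 with 1 tumor left out. For NanoTLZ against i.v. TLZ (0) they were 3 and 21 with DESeq2. For the mean of both treatments (3) they were 33 without a filter, 1 with at least 10 counts in every tumor, 273 with DESeq2, and 0 to 18 with 1 tumor left out. The cause was not tested. No paired analysis was possible because the replicate numbers only name tumors and the labels pair none.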
